A study of Mus musculus with 12 samples.

Results

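The replication-dependent histone genes encode the H1 linker histones and the H2A, H2B, H3 and H4 core histones that package newly made DNA. Their transcripts are the main animal mRNAs that end without a poly(A) tail: a short stem-loop near the 3′ end binds the stem-loop binding protein (Slbp), and cleavage just after it needs the U7 small nuclear ribonucleoprotein. Some of these genes also give longer, polyadenylated transcripts, which are known from differentiated and resting cells.

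RNA-seq was performed on satellite cells, the muscle stem cells, sorted as *Pax7*-ZsGreen+ cells from hind limbs of *Cxcr4* FL/FL mice that carried the *Pax7*-ZsGreen reporter. *Cxcr4* encodes a chemokine receptor. The KO mice also carried *Pax7*-creERT2, which limits the deletion to cells that use the *Pax7* promoter, and the WT mice had the same floxed alleles without the cre. Tamoxifen was given to all groups at 80 mg/kg on 5 days, and the mice were adults, 3 to 4 months old by the methods of the study. Freshly sorted cells were called quiescent (WT, n = 4; KO, n = 4) and cells cultured overnight were called activated (WT, n = 2; KO, n = 2). The labels do not say whether the libraries of a group came from separate mice, so that p-values measure the spread between these libraries, which may be technical.

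The family was found by gene name, as protein-coding genes called Hist1h to Hist4h. Only 8 genes of the deposited count table still had such names, because most had been renamed, and these 8 held 120 of the family's counts, with at most 19 in a library. The same rule was therefore applied to the names that GENCODE release 21 gives to the same gene identifiers, which found 67 genes among the 55401 in the table. They were 6 H1, 18 H2A, 18 H2B, 12 H3 and 13 H4 genes, and 59 of them were listed under newer symbols. Of the 67, 54 lie on chromosome 13, 10 on chromosome 3, 2 on chromosome 11 and 1 on chromosome 6 (GRCm38).

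Libraries held 12775593 to 23717013 counts in quiescent and 3172164 to 5427280 in activated cells. *Cxcr4* was at 80.5 ± 25.3 CPM (the usual depth-scaled count, here with TMM-adjusted library sizes; SD, n = 4) in WT quiescent and 17.1 ± 3.54 in KO quiescent cells, which do not overlap. Its level was 23.9 ± 13.3 CPM (n = 2) in WT activated and 9.54 ± 5.86 CPM (n = 2) in KO activated cells, and the second library of each was at nearly the same level (14.4 CPM in WT, 13.7 CPM in KO). *Cxcr4* passed as lower in KO quiescent cells (log2 fold change -2.24, SE 0.31, adjusted p = 0.00477) but not in KO activated cells (-1.35, SE 0.46, adjusted p = 0.381), where leaving out 1 library gave -2.24 to -0.69. All 9 satellite cell markers examined were above 0 in every quiescent library, with a summed level of 3249 to 6854 CPM. In activated cells the sum was 2353 to 3163 CPM, and 1 of the 9 was at 0 in a KO library. All 9 were lower in activated than in quiescent cells of each genotype. Of these, 6 passed as lower in WT and 7 in KO cells, against 16.5% and 18.5% of all genes. Endothelial markers (6 genes, 207 to 971 CPM in quiescent and 80.7 to 514 CPM in activated cells) and blood markers (6 genes, 97.9 to 348 and 53.4 to 74.7 CPM) were also present, and so were markers of fibroadipogenic progenitors (6 genes, 299.6 to 2010 and 224 to 675 CPM). Of the blood markers, *Cd52* was at 0 in 3 of the 4 activated libraries. A 0 in an activated library allows up to 0.553 to 0.946 CPM, depending on the library (3 counts, counting error only). The part of these cells in the histone levels was not tested. Activated libraries held 1030 to 4899 counts of *Xist*, against 25 to 101 in quiescent ones, and 0 to 10 counts of the Y-linked *Ddx3y*, against 5392 to 12079. The sex of the mice, the culture and the depth therefore cannot be told apart in any comparison of activated with quiescent cells. In bulk RNA, fewer cells that transcribe a gene and less RNA per cell also cannot be told apart.

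The stem-loop is shown here because it marks where the usual histone mRNA ends, so that the annotated bases that follow it show which genes are annotated with a longer transcript. The motif searched was GGNNCT, then a loop of TNTN and then AGNNCC, in which the first 6 bases pair with the last 6. It was searched on the sense strand of each gene's coding transcript with the most bases after the stop codon. It was found in 45 of the 67 genes. Over all coding transcripts it was found in 46 of the 67 and in 9 of 21834 protein-coding genes outside the family (0.0412%). In the sites below, written 5′ to 3′ on the gene's strand, capitals mark the stem-loop and the 5 bases on each side are in lower case (sequences from GENCODE transcripts, GRCm38).
H1f2, extended transcript: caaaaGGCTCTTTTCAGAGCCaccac
H2aw, extended transcript: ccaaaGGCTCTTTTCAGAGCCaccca
H2bc6, extended transcript: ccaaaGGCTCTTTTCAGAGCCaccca
H4c9, extended transcript: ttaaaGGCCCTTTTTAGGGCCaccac
H3c15, extended transcript: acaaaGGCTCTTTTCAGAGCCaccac
H4c8, short transcript: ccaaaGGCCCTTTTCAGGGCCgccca
H3c8, short transcript: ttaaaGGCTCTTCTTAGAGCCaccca
H2ac18, short transcript: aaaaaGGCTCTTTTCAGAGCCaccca

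The same 16 letters, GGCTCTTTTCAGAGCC, were found in 25 of the 45 genes, among them H1, H2A, H2B and H3 genes, and the H4 genes above have a stem that starts with GGCCCT. *H1f2* has its stem-loop at chr13:23739512-23739527 (plus strand) with 840 annotated bases after it, and *H2aw* at chr11:58955172-58955187 (plus strand) with 1643. *H2bc6* has it at chr13:23585531-23585546 (minus strand) with 1861 bases after it, *H4c9* at chr13:22040966-22040981 (minus strand) with 330, and *H3c15* at chr3:96238485-96238500 (minus strand) with 377. In *H4c8* it is at chr13:23531458-23531473 (plus strand) and the annotation ends 46 bases later, in *H3c8* at chr13:23535889-23535904 (plus strand) with 47 bases after it, and in *H2ac18* at chr3:96246032-96246047 (plus strand) with 35. The annotated transcripts of *H2bc4* (chr13:23684199-23692908, plus strand), which has 2 exons, and of *H2bc21* (chr3:96221119-96223738, plus strand) held no match, which says only that these letters are not in them.

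The whole family held few reads: 10453 counts over the 12 libraries. A library had 730 to 1506 counts on the family in quiescent and 349 to 618 in activated cells. Of the 67 genes, 11 were at 0 in every library, which at 170288413 counts in all allows a level of up to 0.0176 CPM for each (3 counts; counting error only). A further 7 genes had 1 to 9 counts in all, and 11 genes had counts in every library. Altogether 31 genes, those at 0 included, never had more than 10 counts in a library, and 9 genes reached over 200 counts in all. Counts of the rarer genes were uneven: of the 49 genes with at least 10 counts, 26 had over 30% of them in 1 library. The H2B gene *H2bc8*, for example, had 22 counts in the fourth WT quiescent library and 0 to 3 in every other, and was chosen as an example after its values were seen. In the map of raw counts, *H1f2* and *H2bc4* stand out in every library and most of the family is dark with scattered counts.

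**Figure D1:**
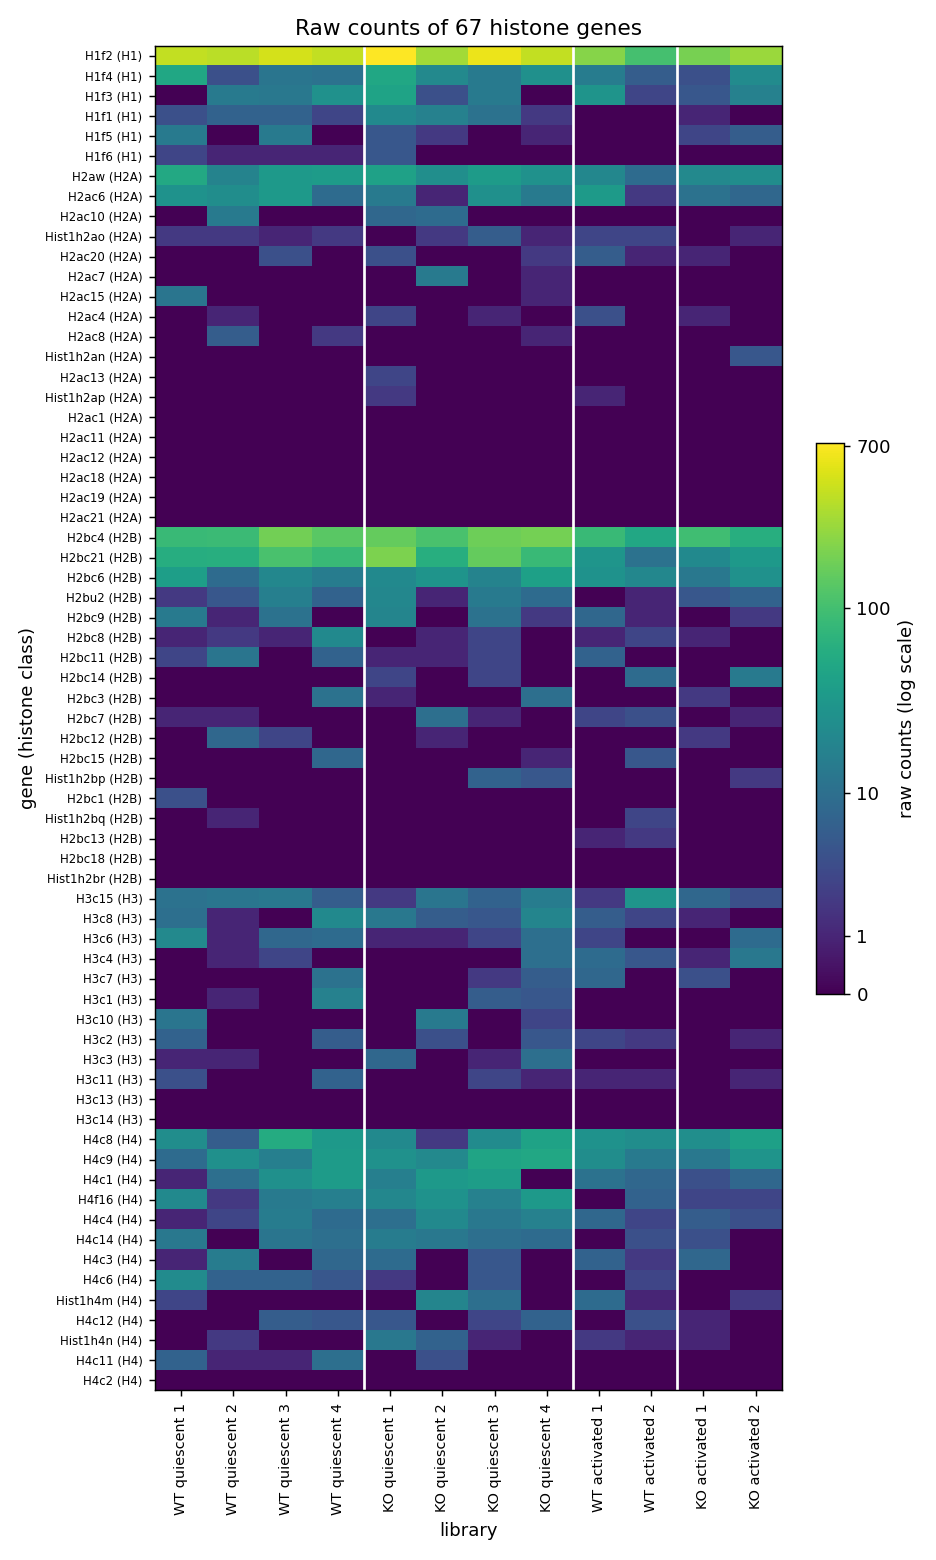
Raw counts (colour, log scale) of the 67 histone genes (rows, by class and total) in the 12 libraries (columns, white lines between groups). *H1f2* and *H2bc4* stand out in all columns, *H2bc21* has 11 counts in the second WT activated library, and 11 rows are at 0 throughout.

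*H1f2*, a linker histone, held 42.2% of the family's counts, and together with the H2B genes *H2bc4* and *H2bc21* 64.1%. *H1f2* had 4413 counts in all, *H2bc4* 1382, *H2bc21* 908, the H2A gene *H2aw* 344, the H4 genes *H4c8* and *H4c9* 328 and 312, and the H2B gene *H2bc6* 281. These 7 genes held 76.2% of the counts. By class, H1 genes held 47.3% of the counts, H2B genes 28.0%, H4 genes 13.7%, H2A genes 6.51% and H3 genes 4.51%. Reads of a longer gene weigh more in such shares, so levels of different genes are compared per kilobase of exon. The mean of the 4 group means was 22.8 CPM per kilobase for *H1f2*, 11.1 for *H2bc4*, 9.54 for *H4c8*, 4.46 for *H4c9*, 2.85 for the H4 gene *H4c1*, 2.22 for the H3 gene *H3c15*, 2.08 for *H2bc21* and 1.46 for *H2aw*. The other H1 genes were far below *H1f2*, with 1.05 CPM per kilobase for *H1f4* and 0.510 for *H1f5*, and the H2A genes after *H2aw* were *H2ac6* at 0.758 and *Hist1h2ao* at 0.636, the latter from 23 counts in all and with 7.35% unique sequence. *H1f6*, the testis-specific H1, had 11 counts in all. The testis-specific H2B gene *H2bc1* had 4 counts, all in 1 WT quiescent library. *H2bu2* on chromosome 11 and *H4f16* on chromosome 6, an H2B and an H4 gene, had 87 and 166 counts in all. The authors' mean FPKM (fragments scaled by exon length and by depth) put the same gene first, with 13.4 for *H1f2*, 5.21 for *H2bc4*, 2.95 for *H4c8* and 1.52 for *H2bc21* in WT quiescent cells, and 26.8, 16.2, 16.7 and 1.89 in WT activated cells.

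Genes annotated with a long 3′ end held most of the counts. In 24 genes the annotation goes on for more than 200 bases after the stop codon, and these held 87.3% of the counts, with a median of 100.5 counts per gene. The other 43 genes held 12.7%, with a median of 18. Per kilobase of exon the medians were 65.1 and 34.6 counts, since the long genes also have more exon (median 1595 against 473 bases). Of the 9 genes with over 200 counts, 8 were in the extended class, and *H4c8*, whose annotated transcript ends 93 bases after the stop codon, was the exception. A poly(A) signal (AATAAA or ATTAAA) stood in the last 50 bases of 17 annotated transcripts, among them those of *H1f2*, *H2bc21*, *H2aw*, *H2bc6*, *H4c9* and *H4c8*, and these 17 genes held 68.7% of the counts. The libraries are labelled as polyA RNA, and whether the reads of a given gene came from tailed transcripts was not tested. Genes with a short end were also more often near copies of other genes, as measured below. The part of this in the counts was not tested. These are descriptions of annotated genes, which are not independent of each other.

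**Figure D2:**
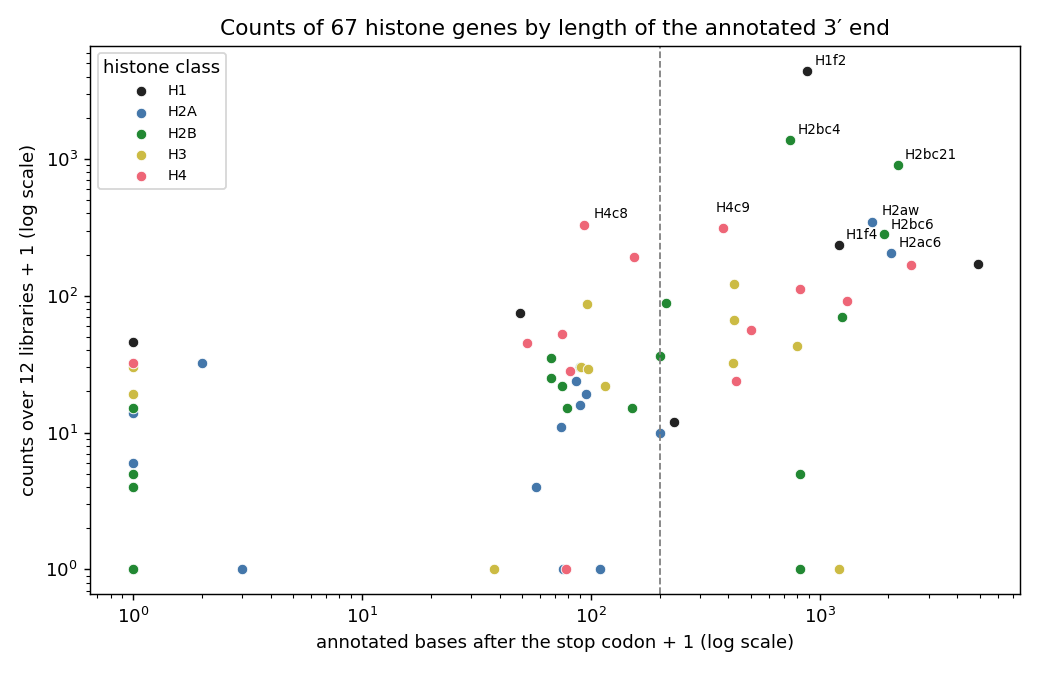
Total counts over 12 libraries plus 1 against annotated bases after the stop codon plus 1 (both log scales) for 67 genes, coloured by class, with the 200-base limit as a dashed line. Genes with over 200 counts are named: 8 of the 9 lie right of the line, and *H4c8* lies left of it.

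Many family members are near copies of each other, so that some reads from them may not be placed on 1 gene. For each gene, the distinct 100-base windows of its transcripts that occur in no annotated transcript of another gene, on either strand, were counted. The study sequenced paired reads longer than 100 bases, so a read pair can be placed where a window cannot. The median gene had 10.5% such windows among the 11 genes at 0 and 68.5% among the 56 with counts. In 28 genes under 50% of the windows were unique, and 10 of the 11 genes at 0 were among these. *H2ac18*, *H2ac19*, *H2bc18*, *H3c13* and *H3c14*, all on chromosome 3, had no unique window, and each lies wholly within exons of other annotated genes. Those other genes held few counts too: the antisense genes *Gm20632*, *Gm20633* and *Gm20628* had 189, 129 and 30 over the 12 libraries, *Gm42743* 77 and *Gm20634* 0. Whether the counting used the strand of the reads is not given in the sources used here, so a gene and its antisense partner cannot be told apart. The 1 gene at 0 with mostly unique sequence was *H2ac1* (89.7%), an H2A gene known from testis. A 0 in this family is a 0 of assigned reads, and whether reads of near copies went unassigned was not tested. Low uniqueness did not always go with a 0: *Hist1h2ao*, with 7.35% unique windows, had 23 counts in 10 libraries. *H3c15*, with 38.4% unique windows beside its copy *H3c14*, is uncertain as well. Exons of *H2aw* overlap those of *Trim17*, and exons of *H1f4* and *H2bc6* overlap each other, so that their counts may be shared too. *H1f2* (94.9%), *H2bc21* (100%), *H4c9* (84.9%), *H2bc4* (74.7%) and *H4c8* (61.5%) do not overlap another gene's exons.

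**Figure D3:**
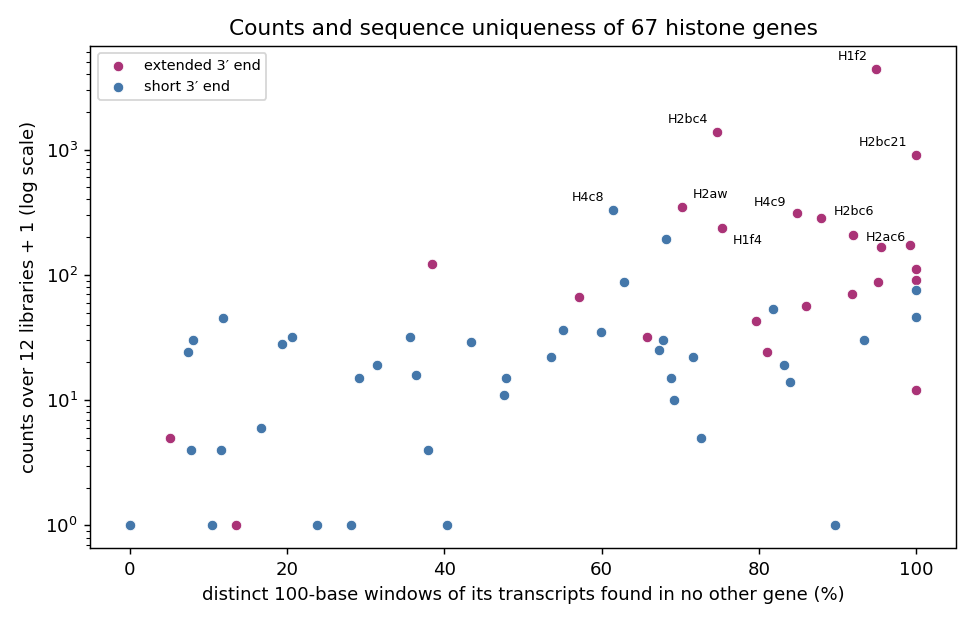
Total counts over 12 libraries plus 1 (log scale) against the percentage of unique 100-base windows for 67 genes, by the class of the annotated 3′ end. The genes at 0 (bottom edge) lie at 40.3% or below except *H2ac1* at 89.7%, and several of them coincide at 0%.

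KO and WT cells were compared within each state, which asks whether the receptor is needed for the transcript levels of quiescent or of activated cells. In the activated groups the lower *Cxcr4* level of the KO libraries did not pass, so that they are compared as labelled. After edgeR's filter on low counts, 32 of the 67 genes were tested among 25771 genes in all: 5 H1, 3 H2A, 9 H2B, 6 H3 and 9 H4 genes. A gene passed where 3 conditions were met: the adjusted p-value (edgeR quasi-likelihood test, Benjamini-Hochberg) was under 0.05, the log2 fold change was over 1 or under -1, and the normalized count of the compared groups averaged over 10.

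In quiescent cells no histone gene passed between KO and WT, against 0.0155% of all genes tested (0.00776% higher and 0.00776% lower). Only 12 of the 32 had a mean normalized count over 10 and so could pass, against 19198 of the 25771 genes tested. None of the 32 reached an unadjusted p of 0.05 in edgeR (1.74% of all genes did), and DESeq2 called none either. *H1f2* was at 20.7, 25.7, 20.8 and 19.0 CPM in the WT quiescent libraries and at 37.8, 19.9, 24.7 and 18.6 CPM in the KO quiescent libraries. The first KO library stood above all others and the rest of the ranges overlapped, and the log2 fold change was 0.23 (SE 0.24, adjusted p = 1). Without that KO library it was -0.034. *H2bc21* was at 3.08, 4.33, 4.78 and 4.19 CPM in WT and at 10.3, 4.17, 6.27 and 4.06 CPM in KO quiescent cells, again highest in the first KO library, with a log2 fold change of 0.60 (SE 0.36, adjusted p = 1). *H2bc4* was at 4.44 to 7.76 CPM in WT and 6.94 to 8.50 CPM in KO, with a log2 fold change of 0.31 (SE 0.28, adjusted p = 1). Of the 32 genes, 21 had a higher and 11 a lower level in KO cells, with a median log2 fold change of 0.32 beside 0.02 over all genes tested. The 1 gene whose groups did not overlap, against 1.7% of all genes, was *H4c6*, an H4 gene with a mean normalized count of 4.60, named here after its values were seen. The family as a whole took 0.00509 ± 0.000551% of counts in WT quiescent and 0.00619 ± 0.00183% in KO quiescent cells (SD, n = 4 each).

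In activated cells no histone gene passed between KO and WT either, against 0.0504% of all genes (0.031% higher and 0.0194% lower), and again none reached an unadjusted p of 0.05 in edgeR (8.37% of all genes did) and none was called by DESeq2. Only 18 of the 32 had a mean normalized count over 10 and so could pass, against 15631 of the 25771 genes tested. *H1f2* was at 35.9 and 45.5 CPM in WT and at 48.3 and 61.4 CPM in KO activated libraries. The groups did not overlap, which with 2 libraries each held for 24.7% of all genes tested, and the log2 fold change was 0.44 (SE 0.34, adjusted p = 0.828). *H2bc4* was at 14.0 and 22.3 CPM in WT and at 24.7 and 13.9 CPM in KO activated cells, and the groups overlapped (log2 fold change 0.10, SE 0.41, adjusted p = 1). *H2bc21* had a log2 fold change of 0.44 (SE 0.56, adjusted p = 0.97). In all, 11 of the 32 genes were higher and 19 lower in KO, and 7 did not overlap. Over all genes tested 11422 were higher and 9690 lower. The family took 0.0112 ± 0.000272% of counts in WT activated and 0.0125 ± 0.000301% in KO activated cells (SD, n = 2 each). The difference between the KO effects in the 2 states passed for none of the 32 histone genes and for 0% of all genes. For this difference 14 of the 32 had a mean normalized count over 10, as did 18144 of all genes tested. No histone gene had an unadjusted p under 0.05 there in edgeR (6.59% of all genes did), and none was called by DESeq2. With 2 shallow libraries per activated group the standard error was 0.34 for *H1f2*, 0.41 for *H2bc4* and 0.76 for *H4c9*, and differences larger than these can be missed too.

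Culture was compared with the freshly sorted state in each genotype. Histone transcripts were higher in activated than in quiescent WT cells for 5 genes, *H2bc4*, *H2bc6*, *H4c8*, *H4c9* and *H3c15*, and lower for none. Of all genes tested, 26.2% passed, 9.65% as higher and 16.5% as lower. In KO cells 5 genes were higher, *H1f2*, *H2bc4*, *H2bc6*, *H4c8* and *H2aw*, and none lower, against 29.6% of all genes, 11.1% as higher and 18.5% as lower. An unadjusted p under 0.05 was reached by 10 of the 32 genes in WT and 8 in KO cells, and by 42.1% and 45.3% of all genes. *H2bc4*, *H2bc6* and *H4c8* were among the 5 in both genotypes, and no gene differed between the genotypes in its change by the test of that difference above. The median log2 fold change over the 32 tested genes was 1.44 in WT and 1.17 in KO cells, beside -0.92 and -0.96 over all genes tested. Genes at low counts can enter the test through the group in which they are high, so these medians describe the tested genes and not the family.

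**Figure D4:**
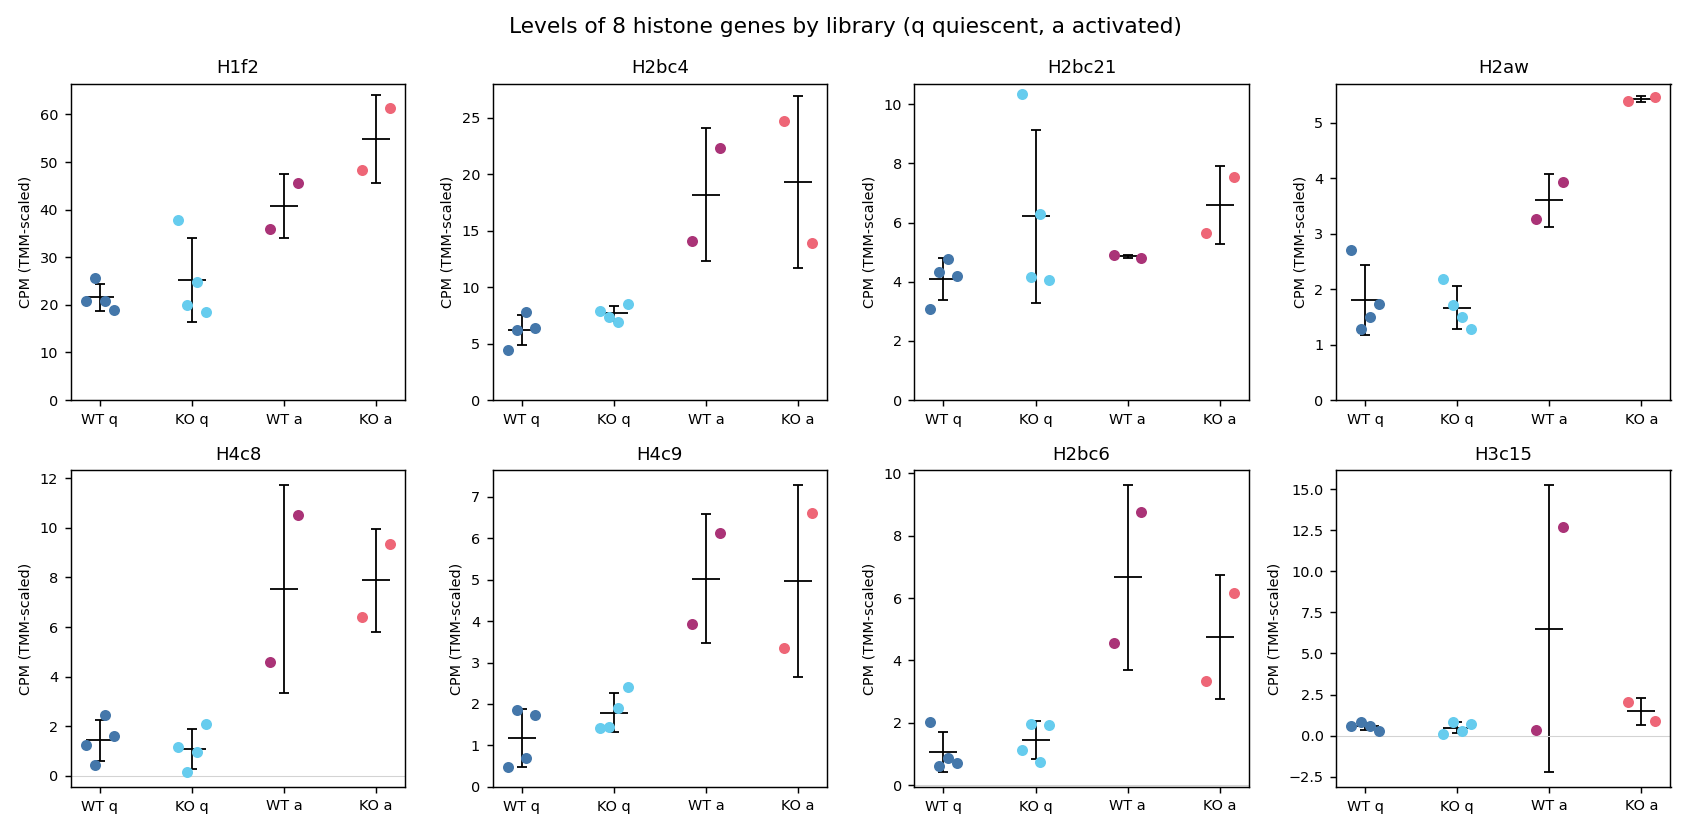
CPM (TMM-scaled) of 8 histone genes in each library (points), with the mean (horizontal mark) and SD (bars) of WT and KO quiescent (n = 4 each) and WT and KO activated (n = 2 each) cells. *H1f2*, *H2bc4*, *H2aw*, *H4c8*, *H4c9* and *H2bc6* are higher in every activated library than in every quiescent library of the same genotype, *H2bc21* is not in KO cells, and *H3c15* is high in 1 WT activated library.

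*H2bc4*, an H2B gene, was at 4.44, 6.24, 7.76 and 6.36 CPM in WT quiescent cells and at 14.0 and 22.3 CPM in WT activated cells. The ranges do not overlap, which held for 56% of all genes tested, and the log2 fold change was 1.53 (SE 0.35, adjusted p = 0.00217). In KO cells it was at 7.88, 7.38, 6.94 and 8.50 CPM against 24.7 and 13.9 CPM, again without overlap (54.4% of all genes), with a log2 fold change of 1.33 (SE 0.34, adjusted p = 0.0053). It rose in both genotypes.

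*H4c8*, an H4 gene with a short annotated end, was at 1.25, 0.426, 2.46 and 1.59 CPM in WT quiescent and 4.57 and 10.5 CPM in WT activated cells. Its log2 fold change was 2.34 (SE 0.72, adjusted p = 0.0193). In KO cells the levels were 1.15, 0.137, 0.955 and 2.08 CPM against 6.42 and 9.35 CPM (log2 fold change 2.84, SE 0.71, adjusted p = 0.00445). Every activated library stood above every quiescent library. The raw counts behind these levels were 2 to 56 per quiescent and 24 to 41 per activated library.

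*H4c9*, the other H4 gene with over 200 counts, was at 0.470, 1.84, 0.702 and 1.73 CPM in WT quiescent and 3.92 and 6.13 CPM in WT activated cells, without overlap (log2 fold change 2.06, SE 0.64, adjusted p = 0.0198). In KO cells it was at 1.41, 1.43, 1.91 and 2.41 CPM against 3.34 and 6.62 CPM, also without overlap, but did not pass (log2 fold change 1.47, SE 0.62, adjusted p = 0.075).

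*H2bc6*, an H2B gene, was at 2.04, 0.639, 0.877 and 0.722 CPM in WT quiescent and 4.57 and 8.76 CPM in WT activated cells (log2 fold change 2.60, SE 0.64, adjusted p = 0.00423). In KO cells it was at 1.15, 1.98, 0.748 and 1.94 CPM against 3.34 and 6.16 CPM (log2 fold change 1.71, SE 0.64, adjusted p = 0.0438). The groups did not overlap in either genotype.

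*H1f2*, the most abundant member, was near the fold limit. In WT activated cells it was at 35.9 and 45.5 CPM, above all 4 WT quiescent libraries, with a log2 fold change of 0.91 (SE 0.29, adjusted p = 0.0229), below the limit of 1. In KO activated cells it was at 48.3 and 61.4 CPM, above all 4 KO quiescent libraries, and passed with a log2 fold change of 1.12 (SE 0.28, adjusted p = 0.00501). In WT cells *H1f2* passed the limit without the first activated (1.16) or the second quiescent library (1.04), and in KO cells it fell short without the second activated library (0.96). Being on opposite sides of the limit does not by itself show a difference between the genotypes. The test of that difference did not pass for *H1f2* or for any other gene. With so few activated libraries it cannot exclude a difference.

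*H2aw* was at 2.71, 1.28, 1.49 and 1.73 CPM in WT quiescent and 3.27 and 3.94 CPM in WT activated cells, without overlap, and did not pass (log2 fold change 0.98, SE 0.57, adjusted p = 0.19). In KO cells it rose from 2.19, 1.71, 1.5 and 1.27 CPM to 5.39 and 5.48 CPM (log2 fold change 1.70, SE 0.54, adjusted p = 0.0204).

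*H2ac6*, an H2A gene with 206 counts in all, was at 1.46, 1.7, 1.49 and 0.433 CPM in WT quiescent and 5.72 and 0.876 CPM in WT activated cells, with overlap (log2 fold change 1.45, SE 0.85, adjusted p = 0.196). Its levels in KO cells were 0.73, 0.0683, 1.08 and 0.661 CPM against 2.83 and 1.83 CPM, without overlap, and did not pass either (log2 fold change 1.83, SE 0.89, adjusted p = 0.116). Between KO and WT it did not pass in quiescent (-0.96, SE 0.72, adjusted p = 1) or activated cells (-0.59, SE 1.05, adjusted p = 1).

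*H3c15*, an H3 gene, passed in WT cells through 1 library. It was at 0.574, 0.851, 0.570 and 0.289 CPM in WT quiescent cells and at 0.327 and 12.7 CPM, or 2 and 29 counts, in WT activated cells, so that the groups overlap. The log2 fold change was 3.44 (SE 1.01, adjusted p = 0.0143), and -0.73 without the second WT activated library. In KO cells it was at 0.104, 0.820, 0.291 and 0.708 CPM against 2.05 and 0.913 CPM, without overlap, and did not pass (log2 fold change 1.62, SE 1.08, adjusted p = 0.237).

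*H2bc21*, the third most abundant gene, did not pass in either genotype: 4.90 and 4.82 CPM in WT activated cells were just above the WT quiescent range, with a log2 fold change of 0.25 (SE 0.48, adjusted p = 0.696). In KO cells 5.65 and 7.53 CPM lay within the quiescent range (log2 fold change 0.09, SE 0.46, adjusted p = 0.89). Of the rarer genes, the H2B gene *H2bc14* had 0 counts in all 4 WT quiescent libraries and 0 and 9 counts in the WT activated libraries, and 3, 0, 3 and 0 against 0 and 14 counts in KO cells. The H3 gene *H3c4* had 0, 1, 3 and 0 counts in WT quiescent and 9 and 5 in WT activated cells. Both had an adjusted p under 0.05 in WT cells but a mean normalized count under 10, and did not pass. The H1 gene *H1f1*, named after its values were seen, had 3 to 7 counts in each WT and 2 to 22 in each KO quiescent library, and 0, 0, 1 and 0 in the activated ones, and did not pass in WT (adjusted p = 0.21) or KO cells (adjusted p = 0.3).

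**Figure D5:**
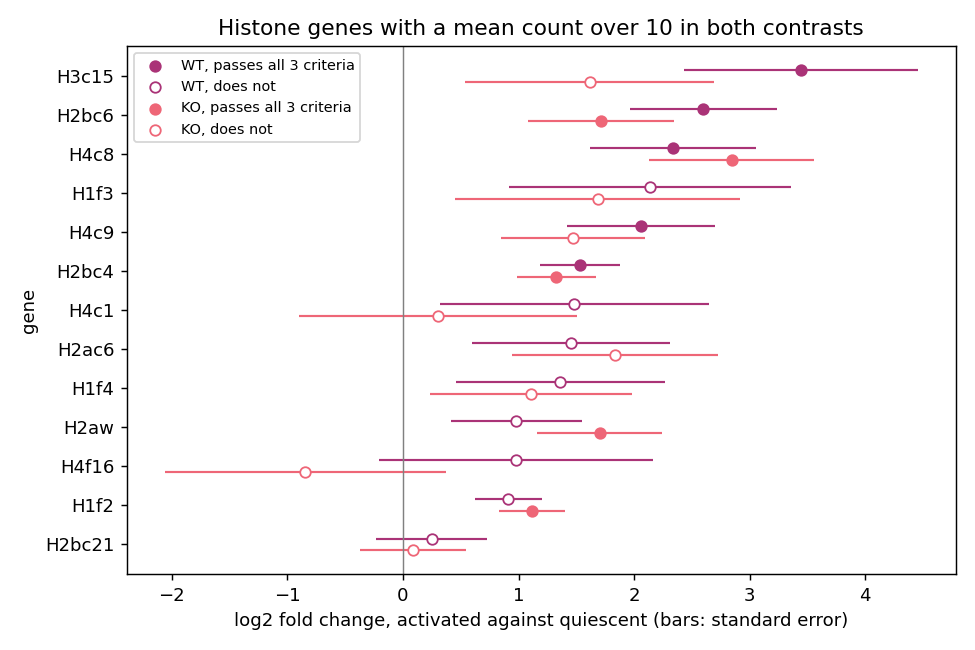
Log2 fold change of activated against quiescent cells with its standard error for the 13 histone genes with a mean normalized count over 10 in both genotypes. Filled points pass all 3 criteria, and the values of *H2bc21* lie near 0 while those of *H2bc4*, *H2bc6* and *H4c8* are above 1 in WT and in KO cells.

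The calls in WT cells rested on the second WT activated library. Without it no histone gene passed, although *H2bc4*, *H4c8*, *H4c9* and *H2bc6* kept log2 fold changes of 1.24, 1.71, 1.78 and 2.15, with adjusted p-values of 0.0584, 0.226, 0.164 and 0.0828. Without either KO activated library 2 genes passed in KO cells: *H1f2* and *H4c8* without the first, and *H2bc4* and *H4c8* without the second. *H2bc6* in KO cells also missed the threshold without the first or the third KO quiescent library (adjusted p = 0.076 and 0.0941), with every gene kept however low its counts (adjusted p = 0.0664) and with KO cells fitted alone (adjusted p = 0.056), and *H2aw* missed it with every gene kept (adjusted p = 0.0661). With the 2 second activated libraries left out together, *H2bc4* alone passed in each genotype. In these fits the remaining activated library of a group is assumed to vary as the other groups do.

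RNAs of other kinds moved with the state too. The ribosomal RNA gene *CT010467.1* took 26.5 ± 19.6% of counts in WT activated and 20.1 ± 12.3% in KO activated cells (SD, n = 2 each), and 0.295 to 0.807% in quiescent libraries, with 1279168 of 3172164 counts in the second WT activated library. *Rn7sk*, a small nuclear RNA without a poly(A) tail, rose from 24.3 ± 7.91 to 483 ± 328 CPM in WT cells (log2 fold change 4.31, SE 0.49, adjusted p = 2.15e-06) and from 27.3 ± 18.2 to 318 ± 205 CPM in KO cells (log2 fold change 3.55, SE 0.48, adjusted p = 1.37e-05). All 4 of the untailed RNAs that could be tested passed as higher in activated cells of both genotypes, and so did all 6 muscle fibre markers. This held for 9.65% of all genes in WT and 11.1% in KO cells. The fibre markers had summed levels of 232 to 819 CPM in quiescent and 5485 to 13464 CPM in activated libraries. The part of these RNAs, of the ribosomal share and of the depth in the histone levels was not tested. As a percentage of counts without *CT010467.1*, the family stood at 0.0157% in WT and 0.0158% in KO activated cells, against 0.0112% and 0.0125% with it.

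By class, the summed CPM of H1, H2A, H2B and H4 genes were higher in every activated library than in every quiescent library of the same genotype, and those of H3 genes were so in WT cells only, at 1.05 to 3.76 against 5.23 and 17.5 CPM, while in KO cells 1.12 to 3.97 CPM overlapped with 3.60 and 6.39 CPM. The difference between the genotypes in H3 genes was not tested. Genes with an extended end summed to 40.2 to 71.7 CPM in quiescent and 86.9 to 121.6 CPM in activated libraries, and genes with a short end to 5.40 to 9.70 CPM and 11.04 to 32.4 CPM.

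Variant histones, most of which are made from polyadenylated mRNAs and not only in S phase, were far more abundant. Their summed level over 11 genes was 1908 to 2694 CPM in quiescent and 1413 to 1569 CPM in activated libraries. Per kilobase of exon, *H3f3b*, which encodes the replacement histone H3.3, was at 588 CPM in WT quiescent cells, where *H1f2* was at 13.8. On activation 1 variant gene rose and 3 fell in WT cells, where 9.65% of all genes passed as higher and 16.5% as lower. In KO cells 2 rose and 4 fell, beside 11.1% and 18.5% of all genes. *H2aj*, an H2A variant, rose from 22.1 ± 4.55 to 252 ± 25.9 CPM in WT cells (log2 fold change 3.51, SE 0.24, adjusted p = 1.7e-08) and by 3.55 on the log2 scale in KO cells (SE 0.24, adjusted p = 1.52e-08). *H3f3b* fell by 1.08 in WT (SE 0.26, adjusted p = 0.00406) and by 1.15 in KO cells (SE 0.27, adjusted p = 0.00237), and *H2az1*, which encodes H2A.Z, by 1.42 (SE 0.25, adjusted p = 0.00023) and 1.71 (SE 0.25, adjusted p = 3.41e-05). *H1f0*, a linker histone of non-dividing cells, passed in KO cells (log2 fold change 1.11, SE 0.27, adjusted p = 0.00379) and had 0.74 in WT cells (SE 0.28, adjusted p = 0.0495). Without the second activated library of its genotype, *H3f3b* (adjusted p = 0.107 in WT, 0.0683 in KO) and *H1f0* in KO cells (adjusted p = 0.187) did not pass, and without the fourth quiescent library of its genotype *H3f3b* in WT (-0.99) and *H1f0* in KO cells (0.99) fell short of the fold limit. No variant gene passed between KO and WT in either state.

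Of 19 genes for the synthesis and processing of histone mRNA, 5 rose and 3 fell on activation in WT cells, and 3 rose and 6 fell in KO cells, beside 26.2% of all genes in WT (9.65% higher, 16.5% lower) and 29.6% in KO cells (11.1% higher, 18.5% lower). *Slbp* was at 59.5 ± 10.7 CPM in WT quiescent and 30.0 ± 4.59 CPM in WT activated cells (log2 fold change -0.99, SE 0.29, adjusted p = 0.0139), just short of the fold limit, and fell by 1.43 in KO cells (SE 0.30, adjusted p = 0.000957). *Ccne1*, the cyclin that drives entry into S phase, fell by 2.22 in WT cells (SE 0.60, adjusted p = 0.0087), to 7 and 3 counts. It also passed as lower in KO cells (adjusted p = 5.03e-05), where the 2 activated libraries had 1 and 0 counts and the 4 quiescent ones 509 in all, a ratio per depth of 0.0176 with an exact 95% interval of 0.000444 to 0.0983 that covers counting error only. *Ccne2*, of the same list, did not fall: it was at 4.14 ± 0.793 CPM in WT quiescent and 5.03 ± 1.56 CPM in WT activated cells, with overlap. In KO cells *Ccne2* was at 3.03 to 4.96 CPM in quiescent and at 7.45 and 7.76 CPM in activated libraries. *Tut7*, which adds uridines to histone mRNAs that are being degraded, fell by 1.09 (SE 0.33, adjusted p = 0.0169) and 1.2 (SE 0.33, adjusted p = 0.00908). *Cpsf2*, a subunit of the complex that cleaves both tailed and untailed mRNAs, rose in WT (log2 fold change 1.55, SE 0.25, adjusted p = 0.000102) and KO cells (1.14, SE 0.25, adjusted p = 0.00167), and *Lsm10*, a protein of the U7 particle, passed in WT cells (1.54, SE 0.42, adjusted p = 0.00907) but not in KO cells (0.62, SE 0.43, adjusted p = 0.258). These calls rested in part on single activated libraries: in WT cells *Tut7* (adjusted p = 0.352) and *Ccne1* (0.0615) without the second and *Ccne1* (0.15) and *Lsm10* (0.201) without the first did not pass, and in KO cells *Slbp* without the second (0.0599) and *Tut7* without the first (0.125). *Slbp* passed in WT cells without the first or the second quiescent library (-1.04 each).

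Of 22 histone chaperones and import factors, 3 rose and 2 fell in WT cells and 4 rose and 4 fell in KO cells, near the 26.2% and 29.6% of all genes that passed. *Hira*, the chaperone that places H3.3, rose by 1.28 in WT (SE 0.35, adjusted p = 0.00955) and 1.67 in KO cells (SE 0.34, adjusted p = 0.000868), while its partner *Ubn1* fell by 1.79 (SE 0.30, adjusted p = 0.000119) and 1.93 (SE 0.30, adjusted p = 5.37e-05). Without the second WT activated library *Hira* did not pass in WT cells (log2 fold change 0.42, adjusted p = 0.512). Among 20 S phase genes, 8 rose and 2 fell in WT cells, and 2 rose and 5 fell in KO cells, beside the same 26.2% and 29.6% of all genes. *Mcm2*, a subunit of the replicative helicase, had log2 fold changes of 2.25 in WT (SE 0.36, adjusted p = 8.25e-05) and 1.01 in KO cells (SE 0.37, adjusted p = 0.0402), where the groups overlapped and the value was 0.12 without the first KO activated library, and it did not pass without the KO quiescent library numbered 1, 3 or 4 either (adjusted p = 0.0639, 0.0651 and 0.0729). *Mcm4* and *Rrm2*, a subunit of ribonucleotide reductase, were the 2 S phase genes that passed between KO and WT activated cells, lower in KO by 2.2 (SE 0.37, adjusted p = 0.0429) and 2.79 (SE 0.45, adjusted p = 0.0356), and neither passed without the first WT (adjusted p = 0.142 and 0.198) or the second KO activated library (adjusted p = 0.327 and 0.274), nor with a mean count of at least 10 (adjusted p = 0.054 for both) or the activated groups alone (adjusted p = 0.292 and 0.192), with values from -1.96 to -2.51 for *Mcm4* and -2.32 to -2.84 for *Rrm2* in these fits. The test of the difference between the states passed for no S phase gene, and for 0% of all genes. There 8 of the 20 S phase genes reached an unadjusted p under 0.05 in edgeR, against 6.59% of all genes. Between KO and WT activated cells 7 of the 20 did, against 8.37% of all genes, and 17 were lower and 3 higher in KO. Over all genes tested 9690 were lower and 11422 higher. The study had already listed *Mcm4* and *Rrm2*, which are among the 20, as lower in KO activated cells. None of the 6 mitosis genes rose: 3 fell in WT and 6 in KO cells, against 16.5% and 18.5% of all genes. In activated cells 1 of the 6 was at 0 in every WT library and 2 in every KO library. A 0 there allows a level of up to 0.553 to 0.946 CPM, depending on the library (3 counts, counting error only).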

How the data were processed

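RNA of 12 satellite cell libraries was sequenced as polyA RNA. The deposited raw counts per gene were made by the authors from reads trimmed with Trim Galore 0.6.0 and aligned with STAR 2.7.2a to GRCm38 (versions from the submitters' processing notes), and counted per gene with GENCODE release 25 names. FPKM values were deposited by the authors as 1 mean per group, and their own fold changes and p-values from DESeq2 1.34.0 were not used. How the counting treated strand and reads with several matches is not given in the sources used here.

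Counts were fitted with edgeR 4.0.16 (R 4.3.3): filterByExpr, TMM scaling, 1 mean for each of 4 groups over all 12 libraries and the quasi-likelihood F test with Benjamini-Hochberg adjustment over 25771 genes. Normalized counts were scaled to the mean effective library size of 14379153, and CPM were divided by TMM factors. The standard error was the log2 fold change divided by the square root of F. The fit was tested on simulated data. DESeq2 1.42.0 and other settings were alternatives. A count of 0 was taken to allow 3 counts, which covers counting error only, since duplicate reads are not independent molecules.

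The members, the other gene lists and the rule for named genes were chosen with earlier results of these data known. Named were the 3 genes of each class with the highest level per kilobase, the genes that passed, a fixed set of members, and fixed genes of the histone pathway. Genes with a similar pattern were not looked for, because the 2 states form separate clusters. WT and KO libraries with the same replicate number were not treated as pairs. Lists were described by counts and medians, with no set test.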

Additional observations from a re-analysis of the deposited data

Results flagged for a closer look

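In groups of 4 quiescent libraries, 68 sets of values were examined with Dixon's ratio, and 5 had 1 library apart from the other 3. Chance marks about 1 in 20 such sets. The summed level of the histone family was 78.6 CPM in the first KO quiescent library against 49.5 to 53.6 CPM in the other KO libraries. The H2B gene *H2bc6* was at 2.04 CPM in the first WT quiescent library against 0.639 to 0.877 CPM in the others. The H1 gene *H1f4*, whose exons overlap those of *H2bc6*, was at 2.56 CPM in the same library against 0.284 to 0.530 CPM. The variant *H2aj* was at 20.2 CPM in the second KO quiescent library against 26.9 to 28.1 CPM, and *Cpsf2* was at 26.8 CPM in the fourth against 19.6 to 20.3 CPM.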

How the results depend on the processing

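No histone gene passed between KO and WT in either state, or in the difference between the states, under any alternative run, the fits without a library included. Genes with a mean normalized count of 10 or less could not pass, except with the adjusted p alone. On activation, 5 genes passed in each genotype. In WT cells *H2bc14* and *H3c4* are counted with the adjusted p alone, though their mean normalized counts were under 10. In WT cells 8 passed with the adjusted p alone, 1 with both second activated libraries left out (an alternative chosen after seeing the data), and 0 to 7 without 1 library. In KO cells 3 passed without a filter on low counts, 2 with the replicate numbers as a block (*H2bc6*, adjusted p = 0.132, *H2aw*, 0.0657, and *H1f2*, log2 fold change 0.98, fell short there), 1 with both second activated libraries left out, and 2 to 5 without 1 library. Same-numbered quiescent libraries did not all deviate together (correlations over 12862 genes of 0.24, 0.165, -0.266 and 0.587), and 1 number of 4 matched itself best. The -0.0705 of activated cells decides nothing, since the deviations of 2 libraries per group mirror each other. Same-numbered quiescent libraries were close in depth (17532019 counts in WT and 17238391 in KO for the first, then 12775593 and 13075208, 23058947 and 22897189, and 22785815 and 23717013). Whether they were processed together was not tested. The numbers were not taken as pairs, which the labels do not state either. The block gave 4 genes in WT cells, and 23 of all genes against 13 between KO and WT activated cells. Without the filter 332 of all genes passed there, with DESeq2 145, with DESeq2 size factors 8, with a mean count of at least 10 only 2, and with the compared groups alone 3.

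Median log2 fold changes of the tested members depend on which rare genes are tested. On activation in WT cells the median was 1.23 without a filter, 1.21 with both second activated libraries left out, and 1.13 to 1.60 without 1 library. In KO cells it was 0.070 without a filter, 1.55 with a mean count of at least 10, 0.73 with DESeq2, 1.36 with the compared groups alone, 0.72 with both second libraries left out, and -0.11 to 1.38 without 1 library. Between KO and WT the median as reported was -0.19 in activated cells, and it was 0.0046 (mean count of at least 10), 0.046 (compared groups alone) and 0 (both second libraries left out) in activated cells, and without 1 library -0.85 to 0 there and 0.082 to 0.44 in quiescent cells. For the difference between the states it was -0.52 as reported, -0.26 with a mean count of at least 10, -1.01 with DESeq2, -0.72 with the block and -1.45 to -0.26 without 1 library, and a fit of compared groups alone was not run.

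The family's share of counts without *H1f2* was 0.00287% in WT quiescent, 0.00351% in KO quiescent, 0.00753% in WT activated and 0.00717% in KO activated cells, and without *CT010467.1* it was 0.0157% and 0.0158% in WT and KO activated cells. Without 1 library it was 0.00488 to 0.00529%, 0.00533 to 0.00677%, 0.0110 to 0.0114% and 0.0123 to 0.0127% in these groups. Single genes changed sign as follows, and the cause was not tested: *H1f2* between KO and WT quiescent cells (-0.034 without the first KO library, and up to 0.35 without another), *H2bc4* between KO and WT activated cells (-0.30 without the first WT and -0.39 without the first KO library, and up to 0.40 without another), *H3c15* in WT cells (-0.73 without the second activated library, -0.75 with both left out, and 4.55 without the first activated library), and *H2bc21* in KO cells (-0.040 and -0.064 without the quiescent libraries numbered 2 and 4, -0.11 without the second activated library and with both left out, and up to 0.46 without another). Limits: 349 to 618 counts on the whole family per activated library, 2 libraries per group, unequal ribosomal RNA, and near copies among members bound what these values can show.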
